A study of Mus musculus with 3 samples.

Results

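Proteasome genes were followed at their H3K27ac regions in tumour myeloid cells. The members were the genes listed beside a region whose symbol starts with Psm, a letter from a to g and a digit, without the immunoproteasome genes Psmb8, Psmb9 and Psmb10, and each gene took the region nearest its start. This gave 44 of 13443 genes with a region. They comprised 7 alpha subunits and 8 beta subunits of the 20S core, 6 ATPases and 11 other subunits of the 19S regulatory particle, 2 chaperones of the 19S base, 4 chaperones of the 20S core, 4 activators, the inhibitor PI31 (Psmf1), and Psmc3ip. Psmc3ip carries the name of an ATPase because its product binds that ATPase, but it encodes a factor of meiotic recombination and is no proteasome subunit. No region of the table analysed was listed for Psma8, Psmd10 or Psme2b.

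The proteasome degrades proteins that carry ubiquitin chains. Its barrel-shaped 20S core has outer rings of alpha subunits, which gate the channel, and inner rings of beta subunits, which hold the proteolytic sites. The 19S particle binds the ubiquitin chain, removes it and unfolds the substrate with a ring of ATPases. In myeloid cells the proteasome also makes peptides for MHC class I and is needed for NF-kB activation, because it destroys the NF-kB inhibitor IkB-alpha.

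The study measured by ChIP-seq the acetylation of histone H3 at lysine 27 (H3K27ac), which marks promoters and enhancers in use, in myeloid-derived suppressor cells (MDSC). The inhibitor group was MDSC from mice dosed orally with 25 mg/kg of GNE-781, a compound that blocks the acetyl-lysine-binding bromodomain of the acetyltransferases CBP and EP300, 2 times a day for 7 days. The vehicle group was MDSC from mice given MCT on the same schedule. All mice were female SCID.beige, an immunodeficient strain, aged 6 to 8 weeks at the start, and carried subcutaneous tumours. The growth protocol names the lines MDA.MB.231-X1.1 and CT26, and both ChIP libraries carry tnbc in their titles. MDSC were sorted as CD45+CD11b+Ly6C+Ly6G+/- and negative for a macrophage marker. The number of mice per library, and whether cells of several mice were pooled, is not given in the labels.

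There was 1 H3K27ac library per treatment, and a pooled input was not used here because the table has no column for it. No difference given here therefore has a replicate error, no test was run, and all differences describe these 2 libraries. The table holds 22399 regions with a value for each library, which is the deposited fragment pileup averaged over the region (called signal here). Whether it includes a scaling by the Drosophila spike-in is not known. Regions had a median signal of 4.67 with inhibitor and 14.5 with vehicle. The difference of a region was taken as log2(inhibitor signal + 1) minus log2(vehicle signal + 1), and its median over all regions was -1.61. A constant factor between the libraries would move all differences the same way, though less at weak signal because of the added 1. Differences less the median over all regions are therefore also given and called recentred. Recentring would remove such a factor only approximately. An interval was called by the authors in 2298 regions with inhibitor and in 22310 with vehicle. Regions enter the table through a called interval, nearly always one of the vehicle library, where the lowest vehicle signal was 8.85. No such floor held for the inhibitor signal, so the choice of regions itself leans to lower values with inhibitor. All 8 genes that mark neutrophils and monocytes had a region, among them Ly6g, Ly6c2 and Spi1 (under its older symbol), against 3 of 6 genes of T, B, epithelial, endothelial and stromal cells.

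H3K27ac was lower with inhibitor at all 44 genes, as it was at 13402 of all 13443 genes. Their signal ran between 2.92 and 10.7 with inhibitor (median 5.12) and between 13.5 and 41.1 with vehicle (median 23.4). The median difference was -1.90, with quartiles of -2.08 and -1.77 and a range from -2.48 to -1.04. Over all 13443 genes by their nearest region, the median was -1.72, with quartiles of -1.97 and -1.43. All 44 genes were at least 2-fold lower, where 94.9% of all genes were, so this count says little about the proteasome. At least 4-fold lower were 18 of the 44 (40.9%), where 23.0% of all genes were. An interval called with inhibitor lay at 11 of the 44 (25.0%), where 17.5% of all genes had one, and an interval called with vehicle lay at all 44. No member was at least 2-fold higher, where 0.126% of all genes were. After recentring, none of the 44 was 2-fold lower or higher, where 0.521% and 0.759% of all genes were. Of the 44, 38 were below 0 and 6 above, where 8164 of all 13443 genes were below 0. The recentred median of the 44 was -0.29, against -0.12 over all genes.

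**Figure D1:**
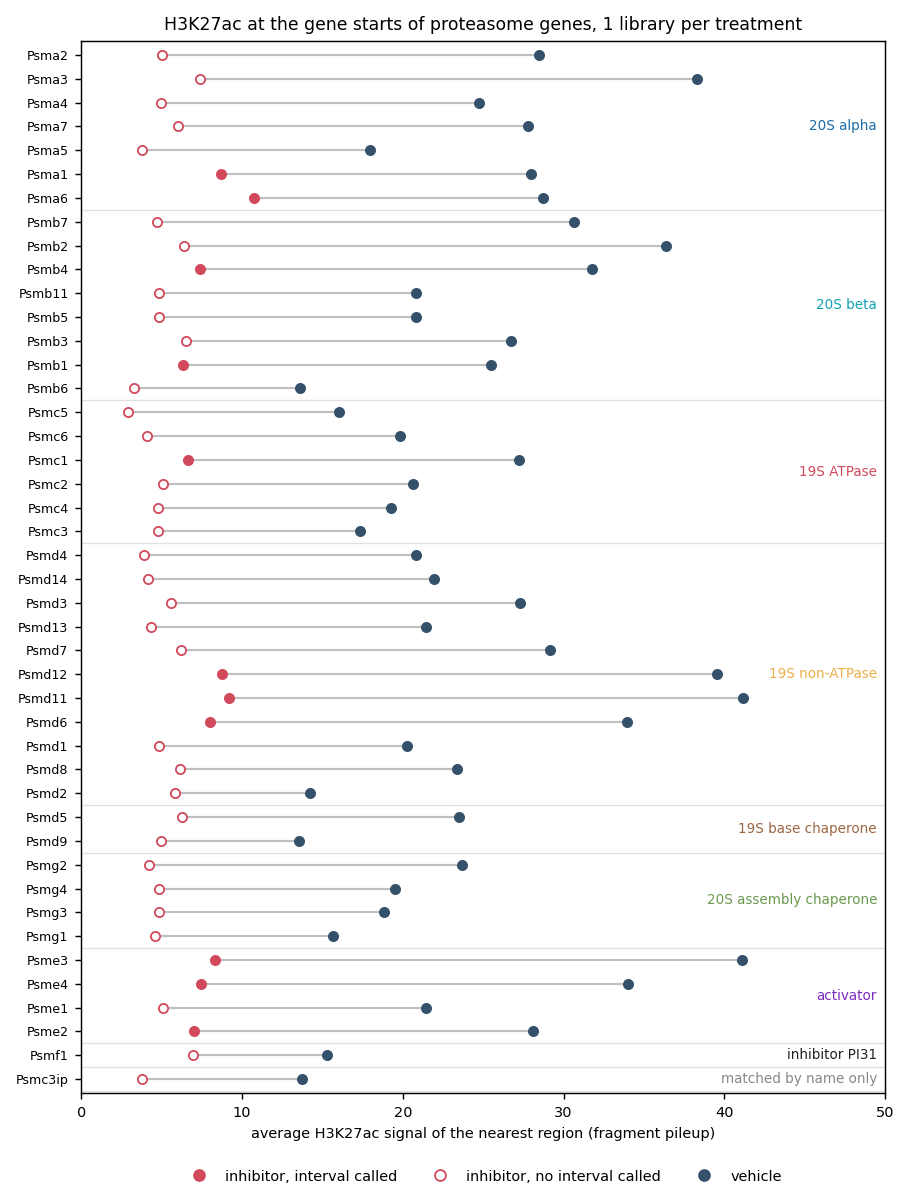
Average H3K27ac signal (fragment pileup) of the region nearest the start of each of the 44 genes, 1 row per gene, ordered within each role by the log2 difference. Red points are the inhibitor library (filled where an interval was called) and blue points the vehicle library, with 1 library per treatment and no error bars. The inhibitor points lie between 2.92 and 10.7 and the vehicle points between 13.5 and 41.1; over all genes the medians were 5.28 with inhibitor and 18.7 with vehicle.

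The 7 alpha subunit genes had a median difference of -2.04, and they held both large and small differences. Psma2 had a signal of 5.03 with inhibitor and 28.5 with vehicle (chromosome 13, 14612794 to 14614070, GRCm38; difference -2.29). Psma3 had 7.38 with inhibitor and 38.3 with vehicle (-2.23), the highest vehicle signal of the ring. Psma4, Psma7 and Psma5 followed at -2.11, -2.04 and -1.998. Psma1 and Psma6 stood apart from these 5 genes through their inhibitor signal and not their vehicle signal. Psma6 (chromosome 12, 55398091 to 55399895) had 10.7 with inhibitor, the highest of all 44 genes, and 28.7 with vehicle, close to Psma2 (-1.34). Psma1 (chromosome 7, 114275186 to 114276443) had 8.68 with inhibitor and 28.0 with vehicle (-1.58). Both kept a called interval with inhibitor, as did no other alpha subunit gene, where 17.5% of all genes had one. Both lay in the strongest of 4 classes by vehicle signal, where 52.6% of all genes had one. After recentring both were above 0 (0.27 and 0.023).

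Among the beta subunit genes the median was -1.90, and the genes of the proteolytic sites spanned the range of the group. Psmb7, the subunit with the trypsin-like site, had the largest difference of all 44 genes, with 4.69 with inhibitor and 30.7 with vehicle (chromosome 2, 38642902 to 38644476; -2.48). Of all genes, 1.41% stood at or below it. By peak signal, the highest pileup within the region, Psmg2 (-3.14) and Psmd14 (-3.00) had larger differences than Psmb7 (-2.82). Psmb5, which carries the chymotrypsin-like site that bortezomib blocks, had 4.85 with inhibitor and 20.8 with vehicle (chromosome 14, 54617272 to 54618561; -1.90). Psmb6, the caspase-like subunit, had 3.30 with inhibitor and 13.6 with vehicle (chromosome 11, 70525064 to 70526743; -1.77), the smallest difference of the group. Psmb2, a non-catalytic subunit, had 6.39 with inhibitor and 36.3 with vehicle (-2.34). Psmb4 (7.37 with inhibitor and 31.8 with vehicle, -1.97) and Psmb1 (6.33 with inhibitor and 25.5 with vehicle, -1.85), also non-catalytic, were the members of the group with an interval called with inhibitor. Such an interval lay at 17.5% of all genes, and at 52.6% in the strongest of 4 classes by vehicle signal, which holds both. Psmb3 stood at -1.88. Psmb11, the thymus subunit beta5t, had no region of its own: the one listed for it is that of Psmb5, 7394 bp upstream of its start, and its value is not independent.

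All 6 ATPase genes, whose products form the unfolding ring, lay between -2.12 and -1.67 (median -1.86). By peak signal they lay between -2.49 (Psmc6) and -1.63 (Psmc3). Psmc5 had 2.92 with inhibitor, the lowest of the 44 genes, and 16.0 with vehicle (chromosome 11, 106254861 to 106256814; -2.12). Psmc3 had 4.77 with inhibitor and 17.4 with vehicle (chromosome 2, 91053725 to 91055307; -1.67). Psmc1, with 6.62 with inhibitor and 27.2 with vehicle (-1.89), was the ATPase gene with an interval called with inhibitor, where 17.5% of all genes had one. It lay in the strongest of 4 classes by vehicle signal, where 52.6% of all genes had one. Psmc6 and Psmc4 stood between at -2.03 and -1.81, beside Psmc2 at -1.82. Psmc3ip, the gene matched by name only, stood at -1.62.

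The 11 non-ATPase genes of the 19S particle had a median of -2.06, and 7 of them were at least 4-fold lower, where 23.0% of all genes were. In the strongest of 4 classes by vehicle signal 55.0% of all genes were, and in the next class 23.1%. The 11 genes were spread over these classes, apart from Psmd2 in a weaker class. Psmd4, a ubiquitin receptor, had 3.88 with inhibitor and 20.8 with vehicle (chromosome 3, 95041738 to 95043214; -2.16). Psmd14, the deubiquitinase that releases the chain, had 4.14 with inhibitor and 21.9 with vehicle (chromosome 2, 61711392 to 61713120; -2.16). Psmd11 (9.19 with inhibitor and 41.1 with vehicle, -2.05), Psmd12 (8.74 with inhibitor and 39.5 with vehicle, -2.06) and Psmd6 (8.00 with inhibitor and 33.9 with vehicle, -1.96), all subunits of the lid, had the 3 highest signals of the group in both libraries and were its members called with inhibitor. Of all genes, 17.5% were called, and 52.6% in the strongest class by vehicle signal, which holds these 3. Psmd3, Psmd13 and Psmd7, also of the lid, lay between -2.10 and -2.07, and Psmd8 and the scaffold subunit Psmd1 at -1.77 and -1.86. Psmd2, the other large scaffold subunit of the base, stood apart with 5.83 with inhibitor and 14.2 with vehicle (chromosome 16, 20651312 to 20652426; -1.15). Its inhibitor signal was the median of the 11 genes whereas its vehicle signal was the lowest of them. By peak signal, the highest pileup within the region, Psmd2 had 15 with inhibitor and 28 with vehicle (-0.86), and it was the member under 2-fold lower on that measure.

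Assembly chaperone genes had medians of -1.79 (20S core) and -1.52 (19S base). None had an interval called with inhibitor, where 17.5% of all genes did. All lay below the strongest class by vehicle signal, and in each lower class at most 12.4% of all genes were called. Of the chaperones of the 20S core, Psmg2 had 4.21 with inhibitor and 23.7 with vehicle (-2.24), and Psmg1 had 4.61 with inhibitor and 15.7 with vehicle (chromosome 16, 95990282 to 95991509; -1.57), with Psmg4 and Psmg3 between at -1.82 and -1.76. Of the base chaperones, Psmd5 had 6.30 with inhibitor and 23.5 with vehicle (-1.75), and Psmd9 had 4.96 with inhibitor and 13.5 with vehicle (chromosome 5, 123228019 to 123228863; -1.29). The vehicle signal of Psmd9 was the lowest of the 44 genes.

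The 4 activator genes had a median of -1.96, whereas the inhibitor gene had the smallest difference of all members. Psme3, the nuclear activator PA28 gamma, had 8.30 with inhibitor and 41.1 with vehicle (chromosome 11, 101315508 to 101317423; -2.18). Psme4, the activator PA200, had 7.46 with inhibitor and 34.0 with vehicle (-2.05). The interferon-induced pair Psme1 (5.12 with inhibitor and 21.4 with vehicle, -1.88) and Psme2 (7.00 with inhibitor and 28.1 with vehicle, -1.86), which build PA28 alpha-beta, had nearly the same difference at 2 separate regions of chromosome 14. Psme2, Psme3 and Psme4 were called with inhibitor, where 17.5% of all genes were. All of these lay in the strongest of 4 classes by vehicle signal, where 52.6% of all genes were called. Psmf1, which encodes PI31 and blocks the 20S core in vitro, had 6.93 with inhibitor and 15.3 with vehicle (chromosome 2, 151740519 to 151741535; -1.04). Of all genes, 93.8% stood at or below it, and it was highest of the 6 members above 0 after recentring (0.57). By peak signal it had 12 with inhibitor and 34 with vehicle (-1.43). On that measure Psmd2 (-0.86), Psmb6 (-1.35) and Psmd9 (-1.37) had smaller differences than Psmf1.

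**Figure D2:**
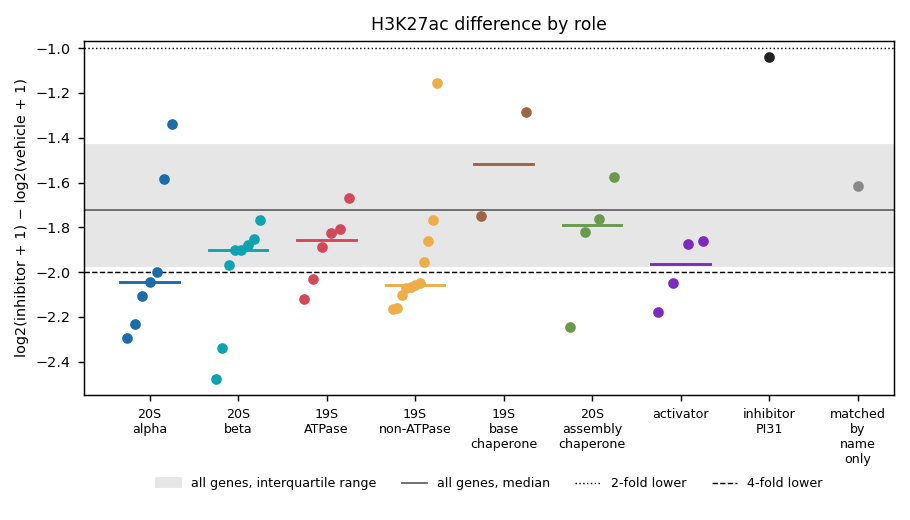
Log2 difference of each member by role, points ordered by value, with the median of the role as a coloured bar, the median (-1.72) and the interquartile range (-1.97 to -1.43) of all 13443 genes in grey, and 2-fold and 4-fold lower as dotted and dashed lines. Psmf1 (-1.04), Psmd2 (-1.15), Psmd9 (-1.29) and Psma6 (-1.34) lie above that range.

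Members were stronger in the vehicle library than most genes, and the difference varied with that signal. Of the 44, 35 exceeded the vehicle median of 18.7 over all genes, and 19 fell in the strongest of 4 classes of equal size by vehicle signal. In that class the median difference was -2.05 for the 19 members and -2.03 for all genes, 57.9% of members and 55.0% of all genes were at least 4-fold lower, and 57.9% of members (11) and 52.6% of all genes had an interval called with inhibitor. In the third class the medians were -1.89 for 16 members and -1.81 for all genes, and 37.5% of members and 23.1% of all genes were at least 4-fold lower. In the second class they were -1.62 for 6 members and -1.58 for all genes, and in the weakest class -1.62 for 3 members and -1.31 for all genes. The gap between the 2 medians was 0.31 in the weakest class and at most 0.079 in the 3 others. Across the 43 regions of the members, inhibitor and vehicle signal had a Pearson correlation of 0.73 and a Spearman correlation of 0.72, against 0.68 and 0.59 across the 8136 regions within 1000 bp of any gene start. The regions share the same 2 libraries, and vehicle signal is itself part of the difference.

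The 11 members with an interval called with inhibitor were all in that strongest class. Their signal had a median of 8.00 with inhibitor and 31.8 with vehicle, against 4.86 with inhibitor and 20.8 with vehicle for the 33 members not called. Signal alone did not separate them, since Psma3, not called, had an inhibitor signal of 7.38, above 6.33 at Psmb1. Their median difference was -1.96, and that of the 33 others -1.90.

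**Figure D3:**
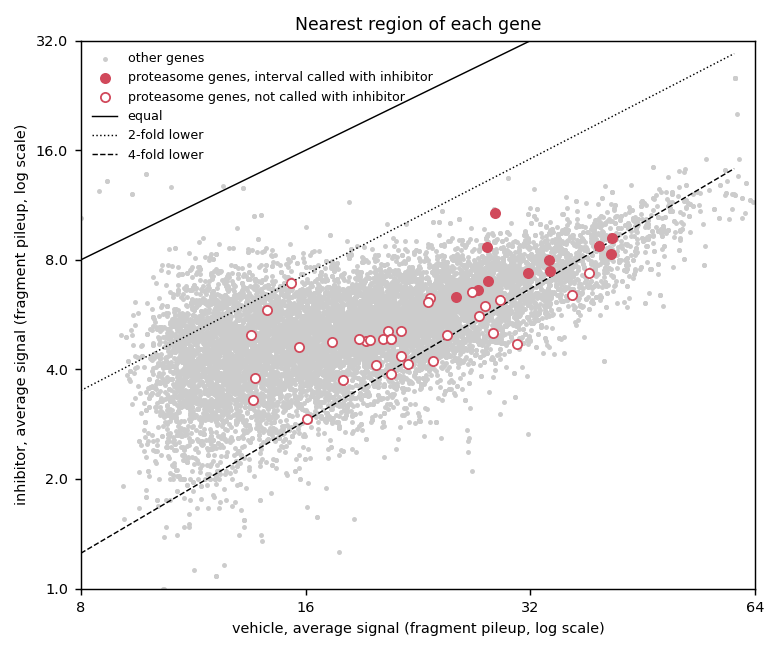
Average signal with inhibitor (y) against vehicle (x), both on log scales, at the region nearest the start of each gene, for 44 proteasome genes (red, filled where an interval was called with inhibitor) and the other genes (grey; 40 of 13399 lie outside the axes). Lines mark equal signal and 2-fold and 4-fold lower on the log2(signal + 1) scale. The 11 filled points have a vehicle signal of 25.5 or more.

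The regions of the members were promoter regions. Of the 44, 43 had the middle of their region within 1000 bp of the gene start (Psmb11 being the exception), where 69.6% of all genes did. The regions of 42 (95.5%) overlapped a CpG island, where 75.3% of all genes did and 85.5% of those with a region within 1000 bp. The share was 94.1% for cytosolic and 97.1% for mitochondrial ribosomal protein genes. Psmb3 and Psmb6 had no island. Among the 9350 genes with a region within 1000 bp, 96.0% were at least 2-fold lower, 26.2% at least 4-fold lower and 18.3% had an interval called with inhibitor, with a median difference of -1.77, against 43, 18 and 11 of 43 members and a median of -1.90. Region length had a median of 1650 bp (844 to 3475), close to the 1581 bp of all genes.

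Away from the starts of members, 19 members had 31 further regions, 1605 to 95668 bp from the start, of which 16 overlapped a CpG island. The start regions of Psme1 and Psme2, each listed also for the other gene, are not counted among them. The signal of the 31 had a median of 4.0 with inhibitor and 13.6 with vehicle, and their median difference was -1.53, against -1.61 over all regions and -1.90 at the starts of the members. Of the 31, 30 were at least 2-fold lower, where 93.4% of all regions were, and 1 was called with inhibitor, where 10.3% of all regions were. Psma1 was listed beside a region 21621 bp from its start, beyond its far end and shared with Copb1, which had 5.30 with inhibitor and 29.6 with vehicle (-2.28), whereas its own start stood at -1.58 from a like vehicle signal. The strongest of these regions lay 9886 bp upstream of Psmd12 and is shared with Pitpnc1, with 12.5 with inhibitor and 47.5 with vehicle (-1.85). The exception was a region 2991 bp upstream of Psmb3, listed also for Pcgf2, with 6.31 with inhibitor and 12.3 with vehicle (-0.87).

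**Figure D4:**
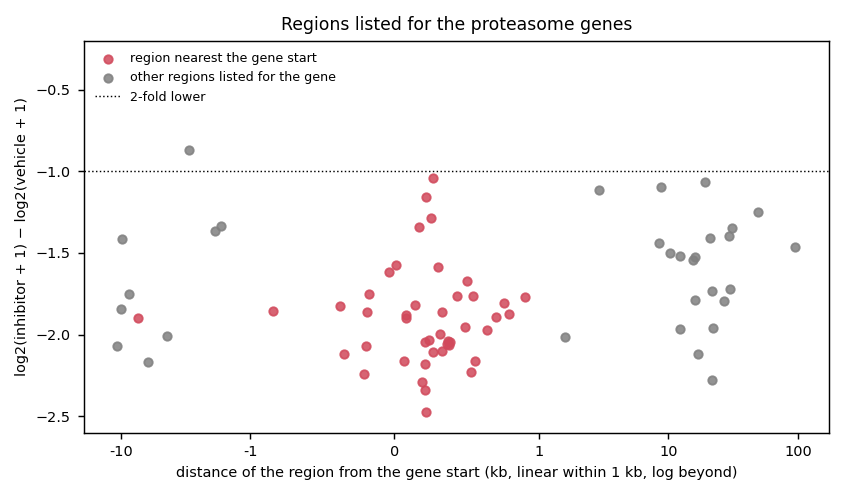
Log2 difference of the regions listed for the 44 genes against the distance of its middle from the gene start (kb, negative upstream; linear within 1 kb, logarithmic beyond). Red points are the regions nearest the start and grey points the 31 regions at no member's start, with medians of -1.90 and -1.53 in that order. The region at -0.87 above the dotted line of 2-fold lower is the one upstream of Psmb3.

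Promoter sequences are shown because nearly all regions of the members cover the gene start. RefSeq promoters (GRCm38.p6, 250 bases before to 50 after the start) were matched by symbol for 37 members, and 36 of these overlapped the member's region. The 4 stretches printed are those of Psmb5, as the drug-sensitive catalytic subunit, Psma6, with the highest inhibitor signal, Psma2, with the largest difference among the matched members, and Psmf1, with the smallest. Each is the 180 bases that end just before the start, read along the gene, 5′ to 3′. Capitals mark matches to the motifs searched on both strands: the antioxidant response elements TGACNNNGC and TGAGNNNGC, which NFE2L1 and NFE2L2 bind, the CCAAT box CCAAT, the ETS core CCGGAAG, and TGCGCA, the core of the nuclear respiratory factor 1 site. A match is a description of the letters and not a bound site.
Psmb5 (chr14:54617996-54618175, minus strand): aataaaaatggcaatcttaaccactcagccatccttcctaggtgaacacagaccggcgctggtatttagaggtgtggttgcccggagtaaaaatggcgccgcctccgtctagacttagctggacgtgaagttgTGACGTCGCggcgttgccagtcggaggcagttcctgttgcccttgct
Psma6 (chr12:55398645-55398824, plus strand): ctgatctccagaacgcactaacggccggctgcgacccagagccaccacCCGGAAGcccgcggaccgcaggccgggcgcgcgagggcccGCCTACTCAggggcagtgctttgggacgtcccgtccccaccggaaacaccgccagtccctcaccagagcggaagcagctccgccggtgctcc
Psma2 (chr13:14613062-14613241, plus strand): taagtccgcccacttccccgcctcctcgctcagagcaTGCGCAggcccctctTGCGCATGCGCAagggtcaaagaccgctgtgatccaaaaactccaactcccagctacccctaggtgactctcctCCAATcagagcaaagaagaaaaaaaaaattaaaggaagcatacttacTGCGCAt
Psmf1 (chr2:151741311-151741490, minus strand): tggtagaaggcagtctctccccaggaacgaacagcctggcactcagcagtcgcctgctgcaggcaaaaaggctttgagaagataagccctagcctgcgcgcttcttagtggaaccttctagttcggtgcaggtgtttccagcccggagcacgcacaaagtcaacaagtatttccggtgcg

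In the stretches shown, Psmb5 holds 1 match, an antioxidant response element. Psma6 holds an ETS core and an antioxidant response element on the other strand. Psma2 holds a CCAAT box and 4 matches to TGCGCA, a pair of them adjoining, and Psmf1 holds none. Over the 36 whole promoters of 300 bases, the ETS core was found in 15 (41.7%), against 8.86% of all 32851 promoters and 21.1% of the 8582 promoters of genes with a region within 1000 bp. It was found in 9 of 16 promoters of 19S genes, Psmc3ip not counted, and in 1 of 11 promoters of alpha and beta subunit genes, that of Psma6. TGAGNNNGC was found in 12 (33.3%), against 17.7% of all promoters and 1716 of the 8582 near a region, and TGACNNNGC in 6 (16.7%), against 12.4% and 14.9%. CCAAT was found in 11 (30.6%), against 37.4% and 38.0%, and TGCGCA in 6 (16.7%), against 7.76% and 14.7%. TGCGCA reads the same on both strands and was counted 1 time per place, and in Psma1 it overlaps a CCAAT match by the end base. The median difference was -1.96 in the 15 members with an ETS core and -1.88 in the 21 without. It was -1.89 in the 16 members with either antioxidant response element and -1.88 in the 20 without.

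Genes of like housekeeping machines were set beside the proteasome. The 68 cytosolic ribosomal protein genes had a median difference of -1.80 (signal medians 5.75 with inhibitor and 22.4 with vehicle), 17.7% were at least 4-fold lower, and 22.1% had an interval called with inhibitor. The 70 mitochondrial ribosomal protein genes had a median of -1.77 (5.20 with inhibitor and 18.6 with vehicle), with 27.1% at least 4-fold lower and 8.57% called. The proteasome values were -1.90, 40.9% and 25.0%, and no test of these gaps was run.

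Other genes of the proteasome pathway were described in the same way. Of 26 listed, 25 had a region, with a median of -1.99, against -1.72 over all genes. Of the 25, 24 were at least 2-fold lower, where 94.9% of all genes were. At least 4-fold lower were 12, where 23.0% were, and 9 had an interval called with inhibitor, where 17.5% did. In the strongest of the 4 classes by vehicle signal, the last 2 shares over all genes were 55.0% and 52.6%. The pathway genes were not compared within classes. Of the immunoproteasome genes, Psmb9 had 7.75 with inhibitor and 43.0 with vehicle (chromosome 17, 34185310 to 34188763; -2.33), and Psmb10 had 6.33 with inhibitor and 32.7 with vehicle (-2.20). Psmb8, at the region over its own start (chromosome 17, 34196340 to 34199761), had 6.26 with inhibitor and 19.7 with vehicle (-1.51), which is 0.09 after recentring. Nfe2l1, the transcription factor that raises proteasome gene expression when the proteasome is blocked, had 5.13 with inhibitor and 25.3 with vehicle (chromosome 11, 96828682 to 96831026; -2.10). Nfe2l2, its relative in the oxidative stress response, had 11.0 with inhibitor and 43.8 with vehicle (-1.90) and was called with inhibitor. The enzymes that activate NFE2L1 lay at both ends of the list outside the immunoproteasome. Ngly1, which removes its glycans, had 3.92 with inhibitor and 22.5 with vehicle (-2.25), and Ddi2, the protease that cleaves it, had 5.17 with inhibitor and 11.2 with vehicle (chromosome 4, 141723464 to 141724399; -0.99, the member of the list under 2-fold lower). By peak signal Ddi2 stood at -0.18. Ubb, a polyubiquitin gene, had 7.03 with inhibitor and 26.5 with vehicle (-1.78) and was called with inhibitor.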

How the data were processed

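H3K27ac ChIP-seq of 1 inhibitor and 1 vehicle library was analysed from 1 deposited table. Per the submitters' processing notes, BWA, SICER, hg19 and dm3 were used, without a stated role or setting. Drosophila chromatin was added to each ChIP as a spike-in, and fragments averaged 380 bp, per the labels' protocols. The authors' deposited values are signal (fragment pileup, average and peak per region), and whether intervals of both libraries were scaled is not given in the sources used here. In none of the 22399 regions did an average of either library lie between 0 and 1. How the authors formed the average is not given, and a mean over covered bins alone would overstate weak signal. The depth is unknown, so no counting interval is given. Coordinates are named GRCm38 because 86.9% of 27781 pairs of region and gene, and 41 of 44 members, had the gene start within 1000 bp of its GRCm38 place. The others were Psma3, Psma6 and Psmf1, whose RefSeq gene record begins over 1000 bp away. The RefSeq promoters printed for Psma6 and Psmf1 do overlap their regions.

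Each gene took the region whose middle is nearest its start, as deposited. Differences used a pseudocount of 1, which understates those of weak regions. At least 2-fold and 4-fold lower mean a difference at or below -1 and -2. Counts over the members are set against all 13443 genes, and those of further regions against all regions. Computations used Python 3.11.15, pandas 2.3.3 and numpy 2.4.6, and were tested on simulated data. Genes named were taken by rule: the extremes of each role, the catalytic beta subunits, Psmd4, Psmd14, members called with inhibitor and distant members; others are examples picked with their values in view. Members, lists and rules were chosen with earlier results of these data known. Of the pathway genes the rule takes, 1 is not reported here, and the pathway counts include it.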

Additional observations from a re-analysis of the deposited data

How the results depend on the processing

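No paired analysis was possible because there is 1 library per treatment, so no library could be left out either. With no replicate spread, a difference was held to be unmoved within 0.1. The median difference of the members (-1.90) was -2.15 with peak signal, -2.09 with no pseudocount, -1.44 with a pseudocount of 5 and -0.29 recentred, where all genes had -1.82, -1.91, -1.24 and -0.12. It stayed within 0.1 with the strongest region, the mean of all regions, regions within 1000 bp, and the lowest quartile of regions by signal left out. The count at least 2-fold lower (44) was 0 recentred, where 0.521% of all genes were, and otherwise 41 to 44. The 41 came with a pseudocount of 5. There the share of all genes fell further, to well below that of the members, and was the lowest apart from recentring. In the remaining settings that share lay between 92.4% and 96.8%. The 3 genes lost with a pseudocount of 5 were Psmf1, Psmd2 and Psmd9. The count at least 4-fold lower (18), a threshold added after seeing the data, was 30 with peak signal, 33 with no pseudocount, 11 with the mean of all regions, and 0 with a pseudocount of 5 or recentred; all genes then had 37.3%, 41.2%, 15.6%, 0.521% and 0.00744%. Recentring alone turned a sign, at Psmf1 (0.57), Psmd2 (0.45), Psmd9 (0.32), Psma6 (0.27), Psmg1 (0.033) and Psma1 (0.023). Without Psmc3ip and Psmb11, an alternative chosen after seeing the data, the median of 42 genes was -1.93, with 42, 18 and 11 genes 2-fold lower, 4-fold lower and called with inhibitor. Unknown depth and scaling limit every absolute difference.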

Other observations

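Several proteasome genes share their H3K27ac region with a neighbour. Of the 44 members, 27 (61.4%) had a region that the table lists beside another gene, where 64.1% of all genes did, and 14 (31.8%) had a region overlapping 2 or more promoters, where 36.8% of all genes did. Psma2 shares its region with Mrpl32, a mitochondrial ribosomal protein gene, Psmb1 with Tbp, the TATA-binding protein gene, Psmc2 with Dnajc2, a ribosome-associated chaperone gene, and Psmd13 with Sirt3, a mitochondrial deacetylase gene. The differences of these 4 regions were -2.29, -1.85, -1.82 and -2.07. Which of the paired genes a region's signal belongs to was not tested. These genes were chosen after their values were seen.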
